A study of Mus musculus with 7 samples.

Results

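The 9 genes described here encode transcription factors of the dermal mesenchyme, the connective tissue layer of skin from which dermal fibroblasts come. They are Twist1, Twist2, Prrx1, Prrx2, Tbx15, Tbx18, En1, Six2 and Tcf21, and they were taken by symbol from the 22956 gene entries found once in each of the RNA tables. The study measured primary dermal fibroblasts of female FVB/N mice after 8 days of culture, untreated or after 3 h of thapsigargin, an inhibitor of the calcium pump of the endoplasmic reticulum that disturbs protein folding there. Its 7 libraries fell into 6 groups. There was 1 RNA library per condition, 1 library of chromatin bound by CEBPB per condition and 1 of chromatin bound by ATF4 after thapsigargin. Bisulfite sequencing covered untreated cells with 2 libraries, whose values are held as 1 pooled percent per cytosine. No group carried an engineered allele per the labels, and how many mice each culture came from is not given in the sources used here. With 1 library per condition no difference had a replicate check, no test was made, and the intervals of RNA ratios cover counting error only.

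Factors of these families are known for setting the identity of mesenchymal cells by position and lineage. Twist1, Twist2 and Tcf21 are basic helix-loop-helix (bHLH) factors, which bind E-box sequences as dimers with E proteins and are held back by Id proteins, which pair with E proteins but lack a DNA-binding region. Prrx1, Prrx2, En1 and Six2 carry a homeodomain, and Tbx15 and Tbx18 carry a T-box. Twist2 is also known as Dermo1 and marks early dermis, En1 marks a lineage of fibroblasts of the back skin, Tbx15 shapes the pigment pattern of mouse back skin, Tbx18 is expressed in dermal papilla cells of hair follicles, Six2 keeps kidney progenitors undifferentiated, and Tcf21 acts in the mesenchyme of heart, kidney and lung. CEBPB and ATF4 are bZIP factors. ATF4 protein accumulates when protein folding in the endoplasmic reticulum is disturbed, and the pair can bind DNA as a dimer at a joint site spelled TTGCATCA.

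The label of the cells was read against fibroblast markers. Of 15 such genes, 13 reached 1 FPKM (a count of fragments divided by transcript length and library size, so that genes of unlike length can be compared) in one RNA library or both. These 13 summed to 16481 FPKM before and 4337 after treatment, and 8 of them were lower and none higher by 1 or more on the log2(FPKM + 1) scale, beside 28.0% and 6.04% of all expressed entries. Measured relative to genes whose transcripts have a similar density of exon junctions, 4 were lower and none higher, beside 9.92% and 12.0%, and Col1a1 went from −2.87 to −0.96. Of 8 endothelial markers only Erg passed that level, at 3.55 and 0.934 FPKM, and Emcn was listed at 0 in the treated library. Markers of macrophages and other leukocytes passed in 8 of 9 cases, with sums of 1103 and 1384 FPKM, most of it from Lyz2 at 879.7 and 951.4. In that list 2 genes were higher by 1 or more, Cd14 at 14.8 and 111.4 FPKM (2.83) and Fcer1g at 77.6 and 188.8 (1.27), none was lower, and by the junction measure 5 were higher. Keratinocyte markers passed in 7 of 10 cases with sums of 24.1 and 3.44, and melanocyte and Schwann cell markers in 5 of 9 with sums of 52.3 and 10.7. In those lists 5 and 4 genes were lower by 1 or more, and none was higher. Tyr was listed at 0 in both libraries, Krt1 in the untreated and Krt15 in the treated library. Adipocyte markers passed in 4 of 6 cases with sums of 32.5 and 18.8, and muscle and pericyte markers in 8 of 11 with sums of 1316 and 595.3. Most of the muscle and pericyte sums came from Acta2, at 1124 and 474.7. The muscle genes Des (24.4 and 17.8 FPKM), Myog (13.8 and 11.9) and Myod1 (3.50 and 1.03) also passed, while Myf5 and Pax7 did not. In that list 1 gene was higher and 3 were lower by 1 or more, and by the junction measure 1 was higher and 0 lower. What part other cells had in the levels of the 9 factors was not tested.

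The sites and upstream regions that carry the results are shown first, read 5′ to 3′ on the strand of the named gene from the mm9 reference, which is built from C57BL/6J and not from FVB/N. The ATF4 peak in the coding exon of Twist1 is shown because it is the only deposited peak within 50 kb of that gene, in its coding part at chr12:34642843-34642987 (plus strand). The ATF4 peak in the first part of Tbx18 is shown by the 300 bases at its centre, chr9:87624986-87625285 (minus strand). The sequence of the Prrx2 intron peak of ATF4, chr2:30720512-30720723 (plus strand), is shown because it is an unmethylated island inside a partly methylated gene. For CEBPB, the site past the end of Prrx2, chr2:30785384-30785567 (plus strand), appeared in both conditions, the Prrx1 intron site, chr1:165222243-165222454 (minus strand), holds the joint CEBPB and ATF4 spelling, and the Twist2 intron site, chr1:93720119-93720418 (plus strand), lies in the gene with a log2(FPKM + 1) difference past 1. Capitals mark matches on either strand to TTGCATCA, CGATGCAA, TGACGTCA, TGANTCA or TTNCNNAA.

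Twist1, ATF4: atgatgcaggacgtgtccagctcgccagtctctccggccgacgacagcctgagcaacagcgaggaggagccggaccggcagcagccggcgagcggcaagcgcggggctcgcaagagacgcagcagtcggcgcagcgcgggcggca
Tbx18, ATF4: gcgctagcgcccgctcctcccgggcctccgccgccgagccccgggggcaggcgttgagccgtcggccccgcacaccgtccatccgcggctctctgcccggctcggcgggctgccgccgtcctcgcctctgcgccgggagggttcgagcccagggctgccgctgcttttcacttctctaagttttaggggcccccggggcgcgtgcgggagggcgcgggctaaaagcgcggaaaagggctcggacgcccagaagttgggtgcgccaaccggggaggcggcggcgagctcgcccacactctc
Prrx2 intron, ATF4: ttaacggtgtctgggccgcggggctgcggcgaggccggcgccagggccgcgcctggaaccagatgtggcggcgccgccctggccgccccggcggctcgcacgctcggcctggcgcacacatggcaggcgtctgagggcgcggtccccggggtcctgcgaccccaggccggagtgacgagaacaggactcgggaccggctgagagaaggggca
Prrx2 downstream, CEBPB: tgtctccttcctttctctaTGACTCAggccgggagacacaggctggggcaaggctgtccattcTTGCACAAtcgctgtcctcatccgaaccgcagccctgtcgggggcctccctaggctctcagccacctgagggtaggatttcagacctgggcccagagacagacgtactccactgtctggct
Prrx1 intron, CEBPB: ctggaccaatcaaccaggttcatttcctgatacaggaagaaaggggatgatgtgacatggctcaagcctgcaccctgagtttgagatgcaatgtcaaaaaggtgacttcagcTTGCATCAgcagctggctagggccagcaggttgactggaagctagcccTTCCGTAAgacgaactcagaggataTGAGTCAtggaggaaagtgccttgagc
Twist2 intron, CEBPB: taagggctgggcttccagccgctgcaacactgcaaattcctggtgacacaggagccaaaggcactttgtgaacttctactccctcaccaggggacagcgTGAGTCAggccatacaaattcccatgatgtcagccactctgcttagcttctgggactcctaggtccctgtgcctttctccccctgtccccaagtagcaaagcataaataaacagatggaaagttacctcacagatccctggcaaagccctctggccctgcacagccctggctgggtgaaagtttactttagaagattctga

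Upstream regions of 3 genes are shown for their methylation, and in them capitals mark CpGs at 20% methylation or less. In the Twist2 region, chr1:93697804-93698037 (plus strand), all 21 CpGs were at or below that level with a mean of 0.333%, and in the Six2 region, chr17:86087595-86087844 (minus strand), all 26 were, with a mean of 0.404%. In the Tcf21 region, chr10:22539935-22540184 (minus strand), 3 of 7 CpGs were, with a mean of 18.4%. Of these genes, Twist2 was abundant in RNA and the others were near the lower end of detection.

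Twist2 upstream: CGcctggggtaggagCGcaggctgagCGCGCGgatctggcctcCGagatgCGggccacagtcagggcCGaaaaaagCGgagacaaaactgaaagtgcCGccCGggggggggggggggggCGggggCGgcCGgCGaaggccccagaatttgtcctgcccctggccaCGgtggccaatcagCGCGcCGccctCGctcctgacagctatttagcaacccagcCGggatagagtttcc
Six2 upstream: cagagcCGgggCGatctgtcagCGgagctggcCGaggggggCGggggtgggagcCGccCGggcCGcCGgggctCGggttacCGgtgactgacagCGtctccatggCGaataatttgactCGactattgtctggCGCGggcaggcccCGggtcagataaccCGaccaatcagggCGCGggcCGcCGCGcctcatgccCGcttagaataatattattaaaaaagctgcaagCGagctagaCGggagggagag
Tcf21 upstream: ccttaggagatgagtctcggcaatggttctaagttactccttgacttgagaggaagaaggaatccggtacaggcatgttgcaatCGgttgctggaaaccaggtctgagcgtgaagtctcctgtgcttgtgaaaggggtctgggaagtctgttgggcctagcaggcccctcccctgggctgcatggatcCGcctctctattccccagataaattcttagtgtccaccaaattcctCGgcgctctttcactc

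The first comparison asked how RNA of the factors differed after 3 h of thapsigargin. Of the 9 factors, 7 stood at FPKM 1 or more in both libraries, and Six2 and Tcf21 stood below it in both. Twist2 was the 1 factor of 7 that was higher by 1 or more on the log2(FPKM + 1) scale, beside 6.04% of the 12153 expressed entries (those reaching FPKM 1 in one library or both), and none of the 7 was lower by that much, beside 28.0% of those entries. The median difference of the 7 factors was 0.07, and that of all expressed entries was −0.52. With so few members these counts are a description and single out nothing. Whether fewer cells of a type or less RNA per cell lies behind a lower level cannot be told apart in bulk RNA.

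**Figure D1:**
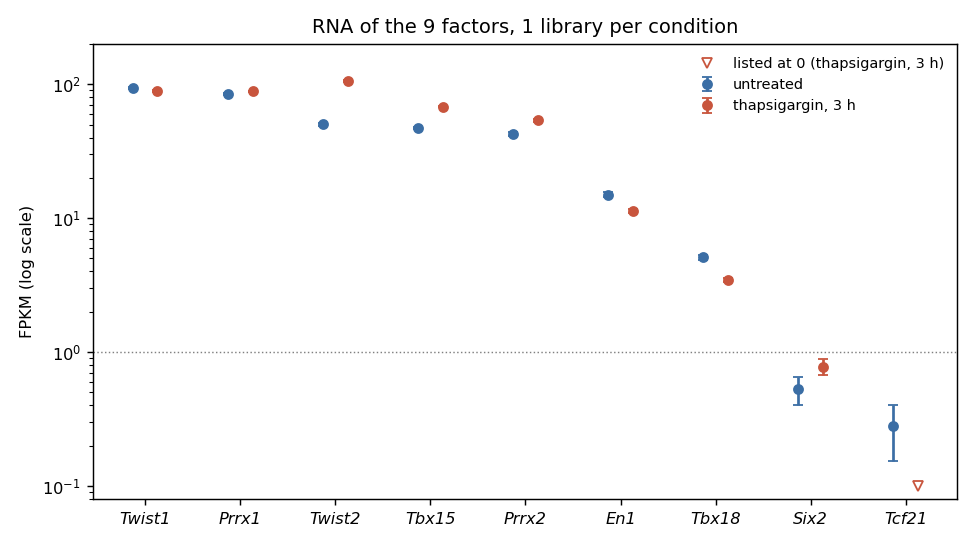
RNA level in FPKM (vertical axis, log scale) of each of the 9 factors in the untreated (blue) and thapsigargin-treated (red) library, 1 library each, with the deposited confidence bounds as error bars and a dotted line at FPKM 1. Twist2 moves from 50.2 to 105.8 FPKM, Twist1 and Prrx1 lie between 84.7 and 94.0 in both libraries, and Tcf21 is listed at 0 in the treated library (open triangle).

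Among the bHLH factors, Twist1 (chr12:34642536-34644696, plus strand) was the most abundant of the 9 in untreated cells. Its level was 94.0 FPKM (deposited bounds 92.0 to 95.9) before and 89.6 FPKM (88.3 to 90.9) after treatment, from 9366 and 18626 fragments implied by those bounds. The ratio of treated over untreated was 0.954 (95% counting interval 0.9302 to 0.978), and the difference on the log2 scale was −0.07, or 0.45 once the median difference of expressed entries was subtracted, so its sign turned with that centring.

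Twist2 (chr1:93698054-93744604, plus strand), its close relative, stood at 50.2 FPKM (48.6 to 51.8) before and 105.8 FPKM (104.2 to 107.4) after treatment, from 3899 and 17198 implied fragments. The ratio was 2.11 (2.04 to 2.18) and the log2 difference 1.06, higher than that of 94.5% of the expressed entries. It was 1.58 when centred and 1.03 relative to genes whose transcripts have a similar density of exon junctions, a property with which the differences of all genes moved. The level of Twist1 was 1.87 times that of Twist2 in the untreated library (1.803 to 1.94) and 0.847 times (0.829 to 0.864) in the treated library, so the order of the pair was the other way round after treatment. In FPKM this reversal lay beyond counting error, and variation between cultures was not measured. Twist1 kept more implied fragments than Twist2 in the treated library (18626 against 17198), so the reversed order rests on the division by transcript length.

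Tcf21 (chr10:22537079-22539934, minus strand), the third bHLH factor, stood at 0.278 FPKM (0.154 to 0.402) from 20 implied fragments in the untreated library and was listed at 0 in the treated library. No ratio was formed for it. At that level it ranked 13314th of all entries in untreated cells.

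Among the E proteins and Id proteins with which bHLH factors pair were differences larger than that of Twist2. Of 12 listed partners and relatives, 9 were expressed. Of those, 3 exceeded a log2 difference of 1 and 2 were below −1, beside 6.04% and 28.0% of all expressed entries. The 3 higher ones were Id proteins: Id3 stood at 67.3 and 920.5 FPKM, a log2 difference of 3.75. Id1 stood at 11.5 and 119.7 (3.27), and Id2 at 30.3 and 87.8 (1.50). The 2 lower ones were the E proteins Tcf3, at 47.4 and 16.1 (−1.50), and Tcf4, at 27.4 and 12.9 (−1.04). Relative to genes of similar junction density Tcf3 stood at −0.28 and Tcf4 at −0.60, while Id3 stood at 3.86. By that measure 3 members of the list were higher by 1 or more and none was lower, beside 12.0% and 9.92% of the 11746 expressed entries with a transcript model. The median of the list was 0.23 and 0.24 by the respective measures.

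Among the homeodomain factors, Prrx1 (chr1:165175250-165243781, minus strand), known for its part in limb and face mesenchyme, stood at 84.7 FPKM (83.5 to 85.8) before and 89.1 FPKM (88.3 to 89.9) after treatment. The 21235 and 50413 implied fragments behind these values were the most of any factor, and the ratio was 1.05 (1.03 to 1.07). Prrx2 (chr2:30700887-30736767, plus strand), its relative, stood at 42.5 FPKM (40.9 to 44.1) and 53.8 FPKM (52.6 to 55.1), a ratio of 1.27 (1.21 to 1.32). Prrx1 was 1.99 times as abundant as Prrx2 (1.91 to 2.07) in untreated cells and 1.65 times (1.61 to 1.69) in treated cells, so the order of this pair was kept. The log2 differences were 0.07 and 0.33, and 0.19 and 0.62 relative to genes of similar junction density. A noncoding gene on each strand overlaps the Prrx1 locus, but neither shares an exonic base with it.

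En1 (chr1:122499064-122504568, plus strand) stood at 15.01 FPKM (14.4 to 15.6) before and 11.4 FPKM (11.02 to 11.8) after treatment, and the ratio of untreated over treated was 1.32 (1.25 to 1.39). Its log2 difference was −0.37, −0.25 relative to genes of similar junction density and 0.15 when centred, so its sign also turned with the centring. Six2 (chr17:86083608-86087594, minus strand) stood at 0.527 FPKM (0.401 to 0.653) from 70 implied fragments and at 0.778 FPKM (0.672 to 0.885) from 215. Its ratio of treated over untreated, 1.48, had the wide interval of 1.13 to 1.93 that such counts give.

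Of the T-box factors, Tbx15 (chr3:99057683-99158183, plus strand) was the abundant one. It stood at 47.1 FPKM (46.2 to 48.0) before and 67.9 FPKM (67.1 to 68.6) after treatment, a ratio of 1.44 (1.41 to 1.47). Its log2 difference of 0.52 became 1.04 when centred, past the limit used for counting, and 0.69 relative to genes of similar junction density. Tbx18 (chr9:87597635-87626095, minus strand) stood at 5.09 FPKM (4.83 to 5.34) and 3.45 FPKM (3.31 to 3.60), and untreated cells had 1.47 times the treated level (1.38 to 1.57). Its log2 difference was −0.45, −0.08 relative to genes of similar junction density and 0.07 when centred. Tbx15 was 9.26 times as abundant as Tbx18 (8.78 to 9.76) in untreated cells and 19.6 times (18.8 to 20.5) in treated cells.

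In untreated cells the order of the levels from the top was Twist1, Prrx1, Twist2, Tbx15, Prrx2, En1, Tbx18, Six2 and Tcf21. The deposited bounds of Twist2 and Tbx15 did not overlap, nor did those of Tbx15 and Prrx2, and of all neighbours in this order Six2 and Tcf21 were the pair with overlapping bounds. In treated cells Twist2 came first, Twist1 and Prrx1 followed with bounds that overlapped, and the other factors kept their order. No 100-base window of the factors' transcripts was found elsewhere in the genome with up to 3 mismatches, so close relatives did not share such windows.

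Transcription factors with levels most like those of each expressed factor were sought by distance over log2(FPKM + 1) in the 2 RNA libraries, among 96 entries. En1 lay nearest to Zeb2, a zinc finger repressor, at 15.9 and 10.4 FPKM (distance 0.14), and next to Zeb1 (0.18). Tbx18 lay nearest to the homeobox gene Msx1, at 4.75 and 4.29 FPKM (0.26). Twist1 and Prrx1 both lay nearest to Creb3l1, a bZIP factor held in the endoplasmic reticulum membrane, at 113.5 and 77.7 FPKM (0.34 and 0.46), and next to Osr1 (0.98 in both cases). Twist2, Prrx2 and Tbx15 had Id2 as the nearest entry, at the larger distances of 0.76, 0.84 and 0.72, followed by Snai1 for Twist2 (1.24) and by Osr1 for Prrx2 (1.13) and Tbx15 (1.12). With 2 libraries such distances describe levels and nothing more.

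The wider set of mesenchymal regulators held members with larger differences than the 9 factors. Among all expressed entries 6.04% were higher and 28.0% lower by 1 or more. Of 38 homeobox, forkhead and related factors, 37 were in the tables and 25 expressed. Of these, 4 were higher by 1 or more, with Foxc2 (1.47 and 7.83 FPKM, log2 difference 1.84), Meox1 (1.61 and 7.83, 1.76) and Irx3 (8.73 and 27.3, 1.54) at the top. The 5 lower ones were led by Osr2 (40.1 and 8.24, −2.15), Shox2 (10.0 and 2.37, −1.71) and Barx1 (2.52 and 0.508, −1.22). Osr1, the most abundant of the list, stood at 92.3 and 44.9. The median was −0.46, or −0.14 relative to genes of similar junction density. By that measure 4 were higher and 2 lower by 1 or more, beside 12.0% and 9.92%.

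Among relatives of the T-box factors and of Six2, with Eya and Dach partners of the latter, 10 of 17 were expressed. None was higher and 1 was lower by 1 or more, beside 6.04% and 28.0% of all expressed entries. The lower one was Eya4, a cofactor of Six2 relatives, at 2.01 and 0.497 FPKM (−1.01, and −0.18 relative to genes of similar junction density). Six5, the most abundant, stood at 11.01 and 8.70. The median of the list was −0.28, or 0.11 relative to genes of similar junction density.

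Other regulators of fibroblasts and mesenchyme were expressed in 27 of 30 cases, with a median of −0.43. In this list 4 were higher and 5 lower by 1 or more, beside 6.04% and 28.0% of all expressed entries. Snai1, a repressor that acts downstream of many mesenchymal signals, stood at 28.2 and 203.2 FPKM (2.81), Runx1 at 12.6 and 39.8 (1.59) and Prdm1 at 0.799 and 3.26 (1.24). Nfix, a nuclear factor I protein, stood at 83.4 and 7.12 (−3.38), Ebf1 at 30.1 and 3.81 (−2.70), and Tcf7l2, a Wnt effector, at 11.2 and 2.94 (−1.63). Relative to genes of similar junction density 5 were higher and 5 lower, beside 12.0% and 9.92%.

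Signals and receptors of the dermis were expressed in 35 of 35 cases, with a median of −0.76. In this list 4 were higher and 11 lower by 1 or more, beside 6.04% and 28.0% of all expressed entries. Wnt11 stood at 0.929 and 12.7 FPKM (2.83), the growth factor gene Fgf7 at 18.4 and 72.0 (1.91) and the BMP antagonist Nog at 2.86 and 12.4 (1.79). The cadherin Cdh2 stood at 13.1 and 2.80 (−1.89), Wnt5a at 31.9 and 8.03 (−1.86) and Cdh11 at 261.2 and 76.4 (−1.76). Postn, the most abundant of the list, stood at 1891 and 1058 (−0.84, and 0.51 relative to genes of similar junction density). By that last measure 8 were higher and 8 lower, beside 12.0% and 9.92%.

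**Figure D2:**
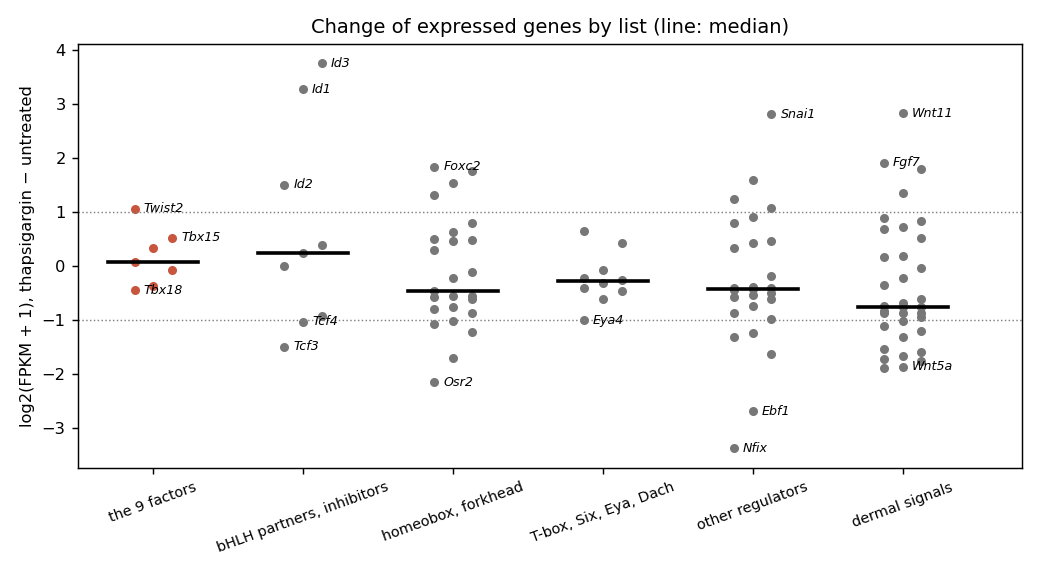
Difference of log2(FPKM + 1), treated minus untreated (vertical axis), of each expressed gene of the 6 lists named on the horizontal axis, 1 point per gene, with a line at the median and dotted lines at 1 and −1. The 9 factors (red, 7 expressed) spread from −0.45 to 1.06, and the bHLH list reaches 3.75 at Id3.

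The next question was how the factor genes were methylated in untreated cells. All 9 gene starts were low in methylation: within 1 kb of the start the mean CpG methylation ranged from 0.664% at Twist1 to 11.7% at Prrx2, under 20% in 9 of 9 genes, beside 60.1% of 20090 genes. That share was 84.1% among genes at FPKM 1 or more in untreated cells, to which 7 of the 9 belong, and 27.8% among the others. Means over the locus with 5 kb on each side differed more, in windows whose length depends on that of the gene. Twist1 (7.89%), Six2 (8.97%) and Tcf21 (11.8%) were under 20%, as were 1.75% of all genes. The other factors ranged from 22.7% at En1 to 55.8% at Prrx2. Twist1, Six2, Tcf21 and En1 are the shortest of the 9 genes, so these means do not measure how far low methylation reached. Tbx15 stood at 46.8% over its long window, yet its 2 kb bins up to 10 kb after the start ran from 2.52% to 22.7%. The median of all genes was 62.4% over that window. Coverage is not in the file, so the depth behind each percent is unknown and no interval is given.

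**Figure D3:**
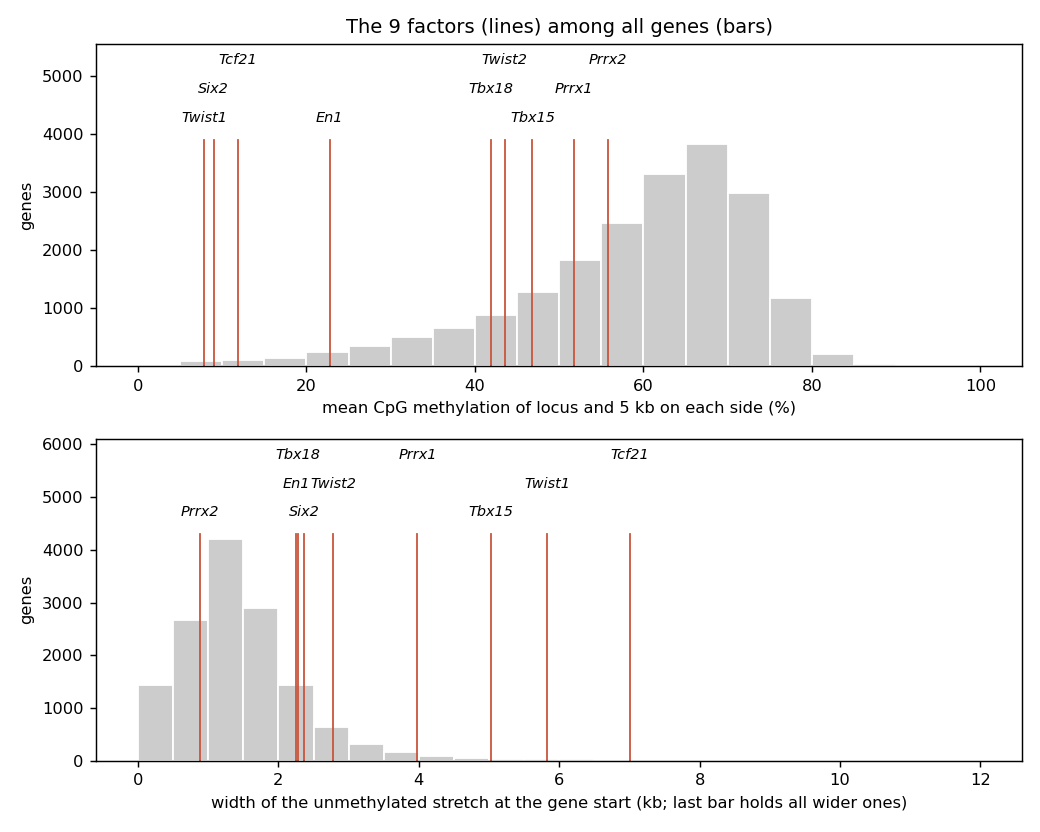
Upper panel, number of genes (bars, vertical axis) by mean CpG methylation of the locus with 5 kb on each side in percent; lower panel, number of genes with an unmethylated stretch at the start by its width in kb, the last bar holding all wider ones. Red lines mark the 9 factors: Twist1, Six2 and Tcf21 lie at 7.89 to 11.8% in the upper panel, and Tcf21, Twist1 and Tbx15 are the widest in the lower one.

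Twist1 was unmethylated from end to end. The mean over its locus was 0.642% from 302 CpG cytosines, of which 99.7% were at 20% or less, and its exons and intron stood at 0.462% and 1.83%. An unmethylated stretch, a run of CpGs whose running mean over 5 CpGs stayed under 20%, covered 5831 bases and 250 CpGs and held the whole gene. A second stretch of 2313 bases with 57 CpGs at a mean of 8.40% followed it after a short gap. In the 2 kb before the start the mean was 6.69%, and between 6 and 8 kb before the start it was 83.7%.

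Twist2, a much longer gene than Twist1, had an unmethylated start within a partly methylated gene. The first 2 kb after the start stood at 3.79%, beside 0.623% at Twist1, so the contrast between the whole loci depends on gene length. The start stood at 2.30% and its stretch at 2784 bases with 178 CpGs, the exons at 15.4% and the intron at 48.6%. Of the cytosines of the locus, 25.5% were at 20% or less and 10.6% at 80% or more, so most were at middle values. Methylation was 79.1% between 6 and 8 kb before the start and 47.7% between 6 and 8 kb after it.

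Tcf21 was low in methylation over a wide range although its RNA was scarce. Its locus stood at 6.68%, and the stretch at the gene was the widest of the 9 factors with 7005 bases and 180 CpGs at a mean of 5.09%, covering 98.1% of the locus and reaching 7059 bases past the start. The stretch began 55 bases after the start, and the start itself lay in a separate run of only 170 bases. The 1 kb on each side of the start stood at 11.1%, and the 5 kb past the end of the gene at 5.52% against 34.2% in the 5 kb before the start.

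Six2 was the other low factor with little RNA. Its locus stood at 6.68%, its start at 1.37%, and 5 separate stretches of 10 or more CpGs lay within the locus and 5 kb on each side, 405 to 2574 bases wide. The exons stood at 2.15% and the intron at 19.6%. In the 5 kb before the start the mean was 9.49%, and in the 5 kb past the end it was 12.2%. Six2 and Tcf21 were below FPKM 1 in the untreated library, and among the 8554 genes below that level 2.40% were under 20% over the locus with its flanks, while the median methylation within 1 kb of their starts was 57.8%.

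Prrx1 and Tbx15, both abundant in RNA, had wide unmethylated starts in long, partly methylated genes. The stretch at Prrx1 covered 3980 bases and 150 CpGs, and that at Tbx15 covered 5025 bases and 181 CpGs. The Prrx1 locus stood at 54.2% and the Tbx15 locus at 50.3%, beside a median of 65.7% over the loci of all genes. The 5 kb past the gene end stood at 80.1% and 80%. The low range of Tbx15 reached on: between 6 and 8 kb after the start its mean was 13.8%, and a stretch of 788 bases lay at 7288 bases from the start. At Prrx1 the mean was 60.8% in the same range.

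Prrx2 had the narrowest stretch at the start, 886 bases with 83 CpGs at 1.10%, and the highest mean over the locus with its flanks. A second, short stretch of 431 bases and 38 CpGs at 1.50% lay in its intron at chr2:30720446-30720876. Tbx18 had a stretch of 2279 bases with 196 CpGs at 0.864%, lying mostly after the start. Its first 2 kb stood at 1.022% and the next 2 kb at 56.9%. En1 had a stretch of 2257 bases with 168 CpGs, a locus mean of 13.5%, and a further stretch of 1140 bases with 49 CpGs at 5.54% that lay before the start at chr1:122492931-122494070.

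Measured by width, the stretch at the start was 5 kb or more in 3 of 9 factors (Tcf21, Twist1 and Tbx15), beside 0.767% of all genes, and 2 kb or more in 8 of 9, beside 14.3%. Of the 20090 genes, 14100 had such a stretch, with a median of 1340 bases. Prrx2, at 886 bases, was the factor below that median. The width did not follow the RNA level in a single order. Taking the run with the most CpGs within 500 bases of the start, the widest belonged to Tcf21, the factor with the least RNA. The next belonged to Twist1, the factor with the most. With the run that held the start or lay nearest to it, the Tcf21 stretch was 170 bases and 2 factors reached 5 kb. The width also depended on the limit for low methylation, and under a limit of 10% the Tcf21 stretch was 1258 bases and no factor reached 5 kb.

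**Figure D4:**
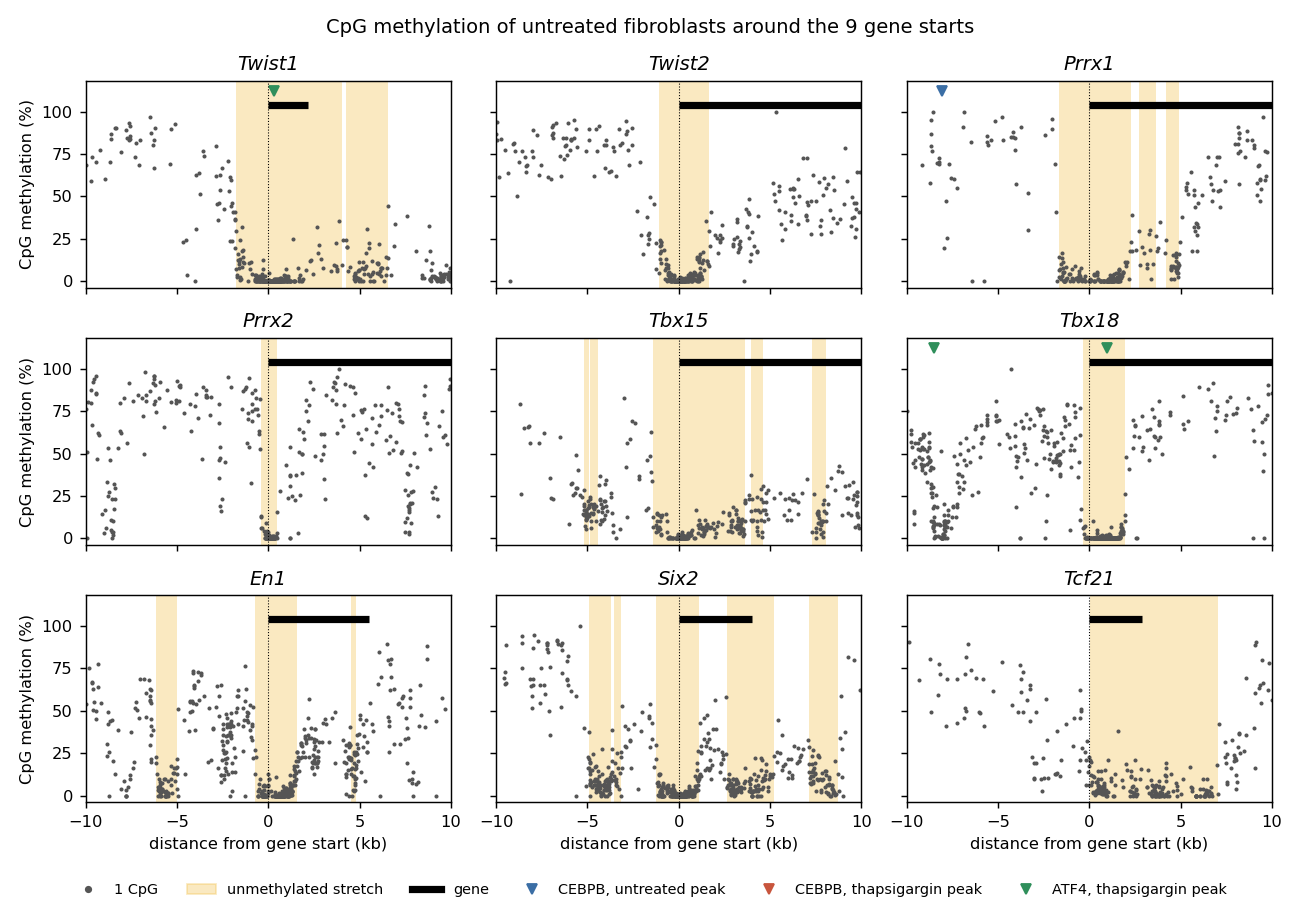
CpG methylation in percent (vertical axis) of each CpG within 10 kb of the start of each of the 9 factor genes (horizontal axis, kb in the direction of transcription), with unmethylated stretches of 10 or more CpGs that touch the locus or its 5 kb flanks shaded, the gene as a black bar and peaks as triangles. Twist1 and Tcf21 are low over the whole gene, and Six2 and Tbx15 over most of the range after the start. At Prrx2 and Tbx18 the shaded stretch lies close to the start, and some CpGs farther out are low too.

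The last comparison asked where CEBPB and ATF4 peaks lay around the factor genes. Within 50 kb of a locus the deposited lists held 15 peaks, at 5 of the 9 genes. CEBPB peaks of untreated cells lay near 3 of 9 factors, beside 34.8% of 21412 genes, CEBPB peaks of treated cells near 2 of 9, beside 37.9%, and ATF4 peaks of treated cells near 3 of 9, beside 65.4%. Tbx15, En1, Six2 and Tcf21 had no peak of any list in that range. Just inside that range lay peaks 48533 and 48598 bases from Prrx2 and Prrx1, and just outside it an ATF4 peak 62489 bases from Six2. Each list came from 1 library, scores are the authors' and are on different scales, and ranks are given within a list only.

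Both Twist genes had peaks, of different factors. At Twist1 an ATF4 peak (chr12:34642745-34642987) was centred 330 bases after the start in the coding exon, with a score that ranked 972nd of 10109 and a CpG methylation of 0.122%. Its nearest CEBPB peaks lay 167.1 kb away in untreated and 83.4 kb away in treated cells. At Twist2 the untreated CEBPB list had an intron peak (chr1:93719994-93720542) at 22.2 kb from the start, ranked 3505th of 7317, and a peak past the gene end (chr1:93754943-93755317) at 57.1 kb, ranked 6542nd. The treated CEBPB list had none within 50 kb of Twist2, and the nearest lay at 329.1 kb. CpGs in these Twist2 peaks stood at 18.5% and 40.1%.

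Prrx1 had CEBPB peaks in both conditions, at different places. In untreated cells they were centred at 46.3 kb in the intron (chr1:165197359-165197655, ranked 6726th), at −8.08 kb (chr1:165251658-165252058, 3864th) and at −48.9 kb (chr1:165292379-165292980, 3737th), the last of which has the start of Gorab as the nearest. In treated cells both peaks were in the intron, at 28.3 kb (chr1:165215357-165215568, ranked 1370th of 7861) and at 21.4 kb (chr1:165222243-165222454, ranked 664th). None of the 3 overlapped either of the 2. CpG methylation, measured in untreated cells only, ran from 21.5% to 83.5% at the untreated peaks, from 8 to 18 cytosines each. At the places of the treated peaks it was 18.7% and 23.8%, from only 6 and 4 cytosines.

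Prrx2 was the 1 factor with peaks in all 3 lists. The CEBPB peak past its end (chr2:30785127-30785734) had the highest rank of the 15 peaks, 170th of 7317 with a score of 393.9, and overlapped a CEBPB peak of treated cells (chr2:30785300-30785567) that ranked 523rd of 7861. It lay 84.5 kb from the Prrx2 start, and the start of Tor1b was nearer, so its link to Prrx2 is by distance only. Its CpGs stood at 4.88%. The other untreated CEBPB peak (chr2:30730750-30731134, ranked 5071st) was in the intron at 69.0% CpG methylation. Of the ATF4 peaks, one (chr2:30663164-30663396, ranked 2125th) lay at the start of Mettl11a at −37.6 kb from Prrx2, and the other (chr2:30720512-30720723, ranked 9297th) filled part of the unmethylated stretch in the Prrx2 intron at 1.25%.

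At Tbx18 both peaks were of ATF4. One (chr9:87624757-87625514, ranked 1533rd) was centred 960 bases after the start in the intron, within the unmethylated stretch, at 0.441%, and the other (chr9:87634517-87634713, ranked 7626th) lay at −8.52 kb and 12.4%. All 5 ATF4 peaks near the factors lay in unmethylated stretches, as did 2 of the 10 CEBPB peaks, both at the site past Prrx2. Over the whole lists, 77.0% of ATF4 peaks, 10.8% of untreated and 7.80% of treated CEBPB peaks were centred in such stretches. No ATF4 peak overlapped a CEBPB peak among the 15.

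**Figure D5:**
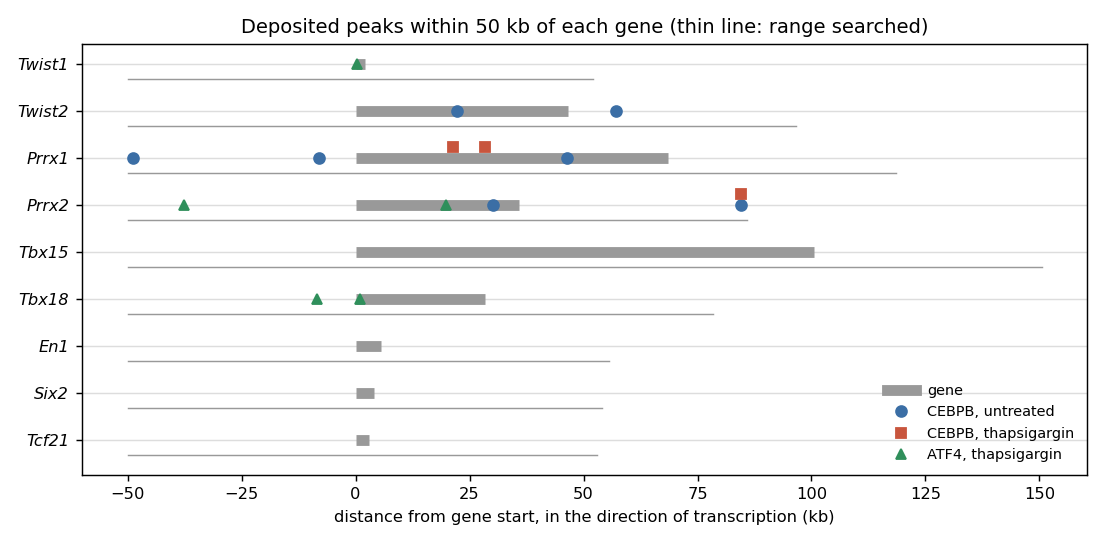
Peaks (circles, CEBPB in untreated cells; squares, CEBPB in treated cells; triangles, ATF4 in treated cells) by distance of their centre from the start of each of the 9 factor genes in kb (horizontal axis), with genes as grey bars and the range searched as a thin line. Prrx1 and Prrx2 hold most peaks, and Tbx15, En1, Six2 and Tcf21 have none.

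Sequence matches were counted on both strands in the 300 bases at the centre of each peak. These windows reach past the ends of narrower peaks and leave out the outer parts of wider ones. TTNCNNAA, a loose form of the CEBPB site TTGCGCAA that includes it, was found in 6 of the 7 untreated CEBPB peaks, 2 of the 3 treated CEBPB peaks and none of the 5 ATF4 peaks. Over all peaks of a list, the 300 bases at the centre held it in 88.6%, 47.4% and 13.5% of cases. TGANTCA, the AP-1 site, was in the Twist2 intron peak, in the second treated peak of Prrx1 and in both peaks past Prrx2, beside 22.8%, 15.2% and 2.55% over the lists. TTGCATCA was in 1 of the 15, the treated Prrx1 peak printed above, beside 7.13%, 8.09% and 0.705%. TGACGTCA was in the windows of both peaks past Prrx2, in a part not printed, beside 0.396%, 0.535% and 1.78%. CGATGCAA, TTGCGCAA and TTGCNNCAA were in none of the 15, beside 0.191%, 4.10% and 4.11% of the untreated CEBPB list. The ATF4 sequences of Twist1, Tbx18 and Prrx2 printed above hold no capitals, which says only that these letters are not in those windows.

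CANNTG, the E-box class that dimers of Twist and Tcf21 bind, occurred in the central windows of 11 of the 15 peaks. It was common everywhere: 82.8%, 85.8% and 61.9% of peaks and 61.2% of 19855 upstream regions of 250 bases held it. Upstream of the factors, within 250 bases of the start and outside annotated exons, it was present at Tbx15, Tbx18 and En1 among the 8 genes with such a region. TGANTCA was present upstream of En1, beside 5.88% of all upstream regions, and TTNCNNAA upstream of Twist2, En1 and Tcf21, beside 32.8%. The regions of the factors were in part shorter than 250 bases after exons were left out.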

How the data were processed

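RNA values are FPKM per gene with lower and upper bounds, deposited by the authors. Peak scores were deposited by the authors per library, and CpG methylation is a percent per cytosine deposited as the authors' pooled value of both bisulfite libraries, without coverage. The submitters' processing notes name mm9, CASAVA 1.8.2 and Bowtie for RNA, CASAVA 1.7 with BWA and SAMtools for immunoprecipitation, and CASAVA 1.8 and Novoalign for bisulfite reads. What made the FPKM, and which peak caller and control were used, is not given in the sources used here.

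Members, gene lists and motifs were chosen with earlier results of these data known; TTGCGCAA, TTNCNNAA and the rule for the stretch at a start were set after their values were seen. Named were all members, up to 3 largest increases and decreases of 1 or more and the most abundant gene of each list, the 2 nearest regulators of each expressed member, and each peak within 50 kb. One gene that this rule takes is not reported here.

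Fragments were taken from the bounds, assumed to lie 2 standard errors from the value. They came out whole within 0.05 for 74.5% of 4160 untreated and 79.3% of 4349 treated entries with few fragments, and summed to 53827935 and 78869846. Counting intervals of ratios are at 95%. Changes are differences of log2(FPKM + 1), which understates those of low genes. The change relative to genes of similar junction density subtracts the median change of the gene's bin, among 50 bins built from genes that reach FPKM 5 in one library or both. Positions follow GENCODE vM1 on mm9, and 98.6% of 38537328 CpG cytosines lay at a CG of the reference. Entries marked heterozygous (83035) were left out. A stretch joins CpGs at most 1 kb apart whose running mean over 5 is under 20%, and the one with the most CpGs within 500 bases of the start was taken. Genes needed 10 CpG cytosines. Transcript windows were aligned with minimap2 2.31-r1302. Scripts were tested on simulated data.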

Additional observations from a re-analysis of the deposited data

How the results depend on the processing

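No paired analysis was possible because each RNA and immunoprecipitation group had 1 library and the bisulfite libraries were held as 1 pooled column, so leaving out replicates could not be run either. The nearest-run rule for stretches and the junction measure for the lists and for all entries were added after the data were seen. After subtracting the median of expressed entries, 2 factors were higher by 1 or more (Twist2 and Tbx15), with 1 as deposited. List genes went from 15 higher and 24 lower to 26 and 12 when centred, and to 20 and 15 relative to genes of similar junction density. All entries went from 734 higher and 3405 lower to 1613 and 1546 when centred, and to 1412 and 1165 with the junction measure. The stretch of 5 kb or more was seen in 0 factors at a limit of 10%, in 5 at 30% and in 2 with the nearest-run rule, against 3. The share of all genes was not counted at those other settings. Treated CEBPB peaks lay near 1 factor within 10 kb, 1 within 25 kb and 5 within 100 kb, against 2. The shares of all genes were 18.2%, 26.2% and 54.8%, against 37.9%. ATF4 peaks lay near 6 factors within 100 kb, against 3, beside 76.4% and 65.4% of all genes. Low fragment numbers limit Six2 and Tcf21.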
